A study of Homo sapiens with 9 samples.

Results

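The RNAs described here are the long non-coding RNAs (lncRNAs) whose gene name ends in -DT, for divergent transcript, each named after a coding gene on the opposite strand, in most cases one whose start lies close to its own. The members were chosen by their biotype, their name and a mean normalized read count above 50 in both deposited tables, which left 94 of the 280 DT lncRNAs listed in both tables, among 51105 genes in all. The cells were wild-type HEK293T, a transformed human embryonic kidney line, crosslinked with formaldehyde, and 9 libraries from total lysate were compared: 3 of input RNA, 3 of RNA immunoprecipitated (RIP) with an antibody to the nuclear poly(A) binding protein PABPN, and 3 of RNA immunoprecipitated with an antibody to its cytoplasmic counterpart PABPC. The libraries came from 3 independent biological replicates, and in each a single lysate was divided between both immunoprecipitations. All libraries were ribodepleted, and reads in exons and introns were counted. No library of a control antibody was analysed here, so each RIP is set against input.

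Most active coding promoters in mammals fire in both directions. The RNA made away from the coding gene is usually capped but short-lived: early poly(A) signals end it, and the nuclear exosome removes it, a route in which PABPN takes part through the poly(A) tail exosome targeting connection. A DT lncRNA is such a divergent RNA that is stable or abundant enough to have its own gene model. PABPN binds poly(A) tails in the nucleus, whereas PABPC binds them mainly in the cytoplasm, where it takes part in translation and mRNA turnover.

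The names held up against the annotation. In GENCODE 44 (hg38) all 94 members lay on the strand opposite to the coding gene that names them. The start sites were within 500 bases of each other in 82 pairs and within 2000 bases in 89 pairs, with a median distance of 134 bases. The other 5 members, CHKB-DT, EDIL3-DT, FBXO30-DT, GARS1-DT and ITGB1-DT, started farther from their partners in this annotation. In 33 pairs the gene models overlapped at their starts, and the authors removed overlapping stretches from the annotation before counting. The members spanned 0.576 to 460 kb (median 23.7 kb) and had 1 to 14 exons in their canonical transcript, with 16 of the 87 members tested below having a single exon. The sequences between the start sites of 3 pairs show how little DNA separates the RNAs whose distribution is compared below. Each is written 5′ to 3′ on the DT strand, with the bases between the start sites in lower case and the first 50 transcribed bases of the DT lncRNA in capitals; they lie at chr22:42090885-42090980 (plus strand), chr17:36936621-36936784 (minus strand) and chr3:122416063-122416249 (plus strand).
NDUFA6-DT: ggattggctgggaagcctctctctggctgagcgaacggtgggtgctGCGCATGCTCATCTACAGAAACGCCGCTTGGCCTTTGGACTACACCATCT
LHX1-DT: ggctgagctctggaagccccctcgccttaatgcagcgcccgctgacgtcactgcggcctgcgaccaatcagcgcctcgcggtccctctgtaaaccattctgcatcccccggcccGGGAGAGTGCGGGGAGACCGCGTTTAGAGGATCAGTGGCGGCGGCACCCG
WDR5B-DT: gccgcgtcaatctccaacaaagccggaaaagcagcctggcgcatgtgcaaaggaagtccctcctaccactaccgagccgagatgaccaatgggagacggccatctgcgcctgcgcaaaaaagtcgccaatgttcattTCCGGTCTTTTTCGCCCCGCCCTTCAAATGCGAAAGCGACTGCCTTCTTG

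The 3′ ends of some members with clear behaviour in the RIPs are printed next, because both proteins bind poly(A) tails and a tail follows a poly(A) signal. Each line holds the last 50 bases of the canonical transcript, with the hexamers AATAAA or ATTAAA, the usual poly(A) signals, in capitals. The first 3 RNAs were high in the PABPC RIP, the next was highest in the PABPN RIP, and the last 3 were low in the PABPC RIP. Their positions, in the same order, are chr2:74832655-74832704, chr17:81029130-81029179, chr7:155005654-155005703, chr2:105333935-105333984, chr20:58619839-58619888, chr15:35860150-35860199 and chr2:150047398-150047447.
HK2-DT: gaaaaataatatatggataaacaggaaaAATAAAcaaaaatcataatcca
BAIAP2-DT: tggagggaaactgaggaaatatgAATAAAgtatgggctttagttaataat
PAXIP1-DT: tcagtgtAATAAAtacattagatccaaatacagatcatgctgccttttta
C2orf49-DT: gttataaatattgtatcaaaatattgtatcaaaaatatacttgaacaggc
APCDD1L-DT: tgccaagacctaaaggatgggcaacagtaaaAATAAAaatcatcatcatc
DPH6-DT: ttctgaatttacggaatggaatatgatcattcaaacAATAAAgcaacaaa
MMADHC-DT: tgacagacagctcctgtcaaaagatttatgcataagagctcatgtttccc

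Of the 94 members, 43 (45.7%) had AATAAA or ATTAAA in those last 50 bases, as against 84 of their 94 coding partners (89.4%) and 44.9% of all 4976 tested lncRNAs with a canonical transcript. In the first 1000 bases after the start site, read on the gene's own strand, 37 members (39.4%) and 23 partners (24.5%) held AATAAA or ATTAAA, against 52.7% of all tested lncRNAs and 30.9% of tested coding genes. The U1-type 5′ splice site words GTAAGT or GGTAAG were found there in 31 members (33.0%) and in 28 partners (29.8%). The words GTAAGT and GGTAAG overlap in GGTAAGT, which was counted as a single site. In the 300-base promoters of RefSeq (GRCh38.p14), which matched 75 members by symbol, the word TATAAA was found on the gene's strand in 2 members (2.67%) and in 7.71% of all promoters, and a median of 21.3% of the members' promoter bases lay in CpG dinucleotides, against 9.33% over all promoters. These matches describe letters in a window and not sites in use.

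The tables give 1 mean per gene over 6 libraries, and the reads behind each mean were solved as whole numbers from the pair of tables, which share the input libraries. This was possible for 87 of the 94 members. The other 7 members, with means of 994 or more in the PABPN table, had no accepted solution and are described by bounds further on. The solved genes held between 2096429 and 3270268 reads per library, and the members had between 12 and 1991 reads in a library. Normalized counts are reads divided by the size factors that the deposited means imply. A log2 difference is a difference of group means of log2(normalized count + 1), and a gene was called where limma gave a Benjamini-Hochberg adjusted p of at most 0.01 over all 13285 genes tested and a difference beyond 0.5. A value lower in a RIP than in input is a smaller share of that library, since the amount of RNA recovered is not in the files.

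The libraries of a group have no replicate number in the tables and are numbered here only to name them. Input library 1, PABPN RIP library 3 and PABPC RIP library 1 stood apart from the others of their groups. Their deviations from the group means correlated with each other across genes (Pearson's r of 0.676, 0.641 and 0.523), and the members were higher in them: 69, 76 and 66 of 87 members exceeded the mean of the other libraries of the group, by a median of 0.24, 0.33 and 0.31 on the log2 scale. Counts of calls without these libraries are given for the 3 comparisons of the members and for the pairs, as a setting chosen after seeing the data, and the counts by joint call, gene structure and lncRNA class were not recomputed without them. The labelled cell line was set against markers through the deposited means, which average input and RIP libraries. The neuronal intermediate filament genes NEFL and NEFM and the mesenchymal gene VIM, all known from HEK293T cells, had means between 9896 and 68292. PAX2, LHX1 and INA, also listed as expressed in these cells, had far lower means, between 150 and 644. The markers of other cell types PTPRC, HBB, CD3E, KRT5 and COL1A2 had means of 0 to 0.804, and the liver gene ALB had means of 8.64 and 5.79. As a check of the antibodies, the nuclear lncRNA NEAT1 was at least 3.41-fold higher in the PABPN RIP than in the PABPC RIP, whereas the ACTB and GAPDH mRNAs were at least 3.02-fold and 3.18-fold higher in the PABPC RIP. MALAT1, another nuclear lncRNA, was at least 1.39-fold higher in the PABPN RIP. Of the other RNAs set for this check, RMRP could not be placed on either side. RN7SL1 was at least 1.02-fold higher in the PABPC RIP, and RN7SK had no values.

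At the deposited size factors, the DT lncRNAs called in the PABPN RIP were all higher than in input, which did not hold under every scaling. Of the 87 members, 35 rose (40.2%), none fell and 52 did not pass, with a median log2 difference of 0.53 and a range of -0.36 to 2.13. Over all 13285 genes tested, 13.0% were called higher and 4.70% lower, with a median of 0.11. Among the 5971 tested genes with means above 50 in both tables, the minimum set for the members, 21.0% were called higher and 7.20% lower. Among all 1402 lncRNAs tested above that minimum, 24.4% were called higher and 1.85% lower. The scarcity of falls was thus not particular to the DT lncRNAs. The groups did not overlap in 52 of the 87 members (59.8%), near the 56.5% of those 5971 genes. Without the 3 libraries that stood apart, 41 members rose. The scaling mattered here: with size factors computed from the solved genes alone, the median of all genes shifted by -0.33, 19 members rose and 4 fell (DPY19L3-DT, MFF-DT, MRPS30-DT and ZNF8-DT, so that 82.6% of the member calls were higher rather than 100%), while total-read and upper-quartile scaling each gave 25 risen and none fallen.

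The members with the largest rise in the PABPN RIP were compact genes. AFDN-DT (ENSG00000198221, chr6:167822103-167826833, minus strand, 2 exons), divergent from the gene of the junction protein afadin, had normalized counts of 80.2, 70.4 and 58.0 in input, 285, 282 and 352 in the PABPN RIP, and 148, 98.2 and 99.4 in the PABPC RIP. All PABPN RIP libraries lay above all PABPC RIP libraries, which in turn lay above input. Its log2 difference was 2.13 ± 0.20 (SE, n = 3 libraries a group; limma, adjusted p = 2.5e-06) in the PABPN RIP and 0.70 ± 0.20 (limma, adjusted p = 0.00538) in the PABPC RIP.

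PAXIP1-DT (ENSG00000273344, chr7:155003421-155005703, plus strand, 1 exon), next to a gene of the DNA damage response, had 152, 136 and 135 in input, 508, 551 and 737 in the PABPN RIP, and 519, 424 and 410 in the PABPC RIP. It rose in both RIPs, by 2.06 ± 0.15 with PABPN and by 1.67 ± 0.15 with PABPC (limma, adjusted p = 3.6e-07 and 2.6e-07), and the RIPs overlapped each other. C2orf49-DT (ENSG00000272994, chr2:105333935-105337509, minus strand, 1 exon), 23 bases from the start of a gene for a subunit of the tRNA ligase complex, had 389, 425 and 439 in input, 1446, 1523 and 1485 in the PABPN RIP, and 596, 718 and 728 in the PABPC RIP. Its replicates were among the tightest of the members: it rose by 1.83 ± 0.10 in the PABPN RIP (limma, adjusted p = 3.9e-08) and was 1.13 ± 0.10 higher there than in the PABPC RIP (limma, adjusted p = 2.1e-07).

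PRKACB-DT, next to the gene of a catalytic subunit of protein kinase A, had 126, 116 and 105 in input, 365, 341 and 572 in the PABPN RIP, and 210, 168 and 157 in the PABPC RIP. Here the highest PABPN RIP value came from the library that stood apart, and the other PABPN RIP libraries still lay above all input libraries. CAPN10-DT, divergent from the gene of the protease calpain 10, had 184, 214 and 184 in input, 675, 628 and 559 in the PABPN RIP, and 248, 287 and 276 in the PABPC RIP. The log2 differences in the PABPN RIP were 1.84 ± 0.19 for PRKACB-DT and 1.67 ± 0.13 for CAPN10-DT (limma, adjusted p = 7.8e-06 and 4.9e-07).

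**Figure D1:**
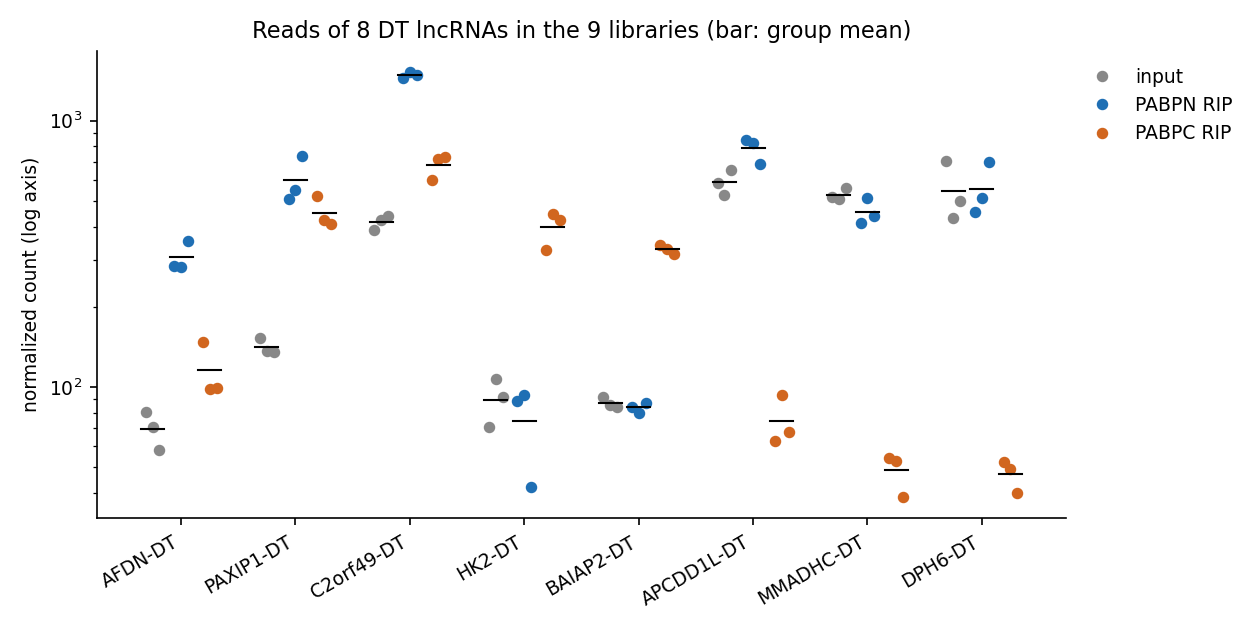
Normalized counts (log axis) of 8 DT lncRNAs in each of the 9 libraries: input in grey, PABPN RIP in blue, PABPC RIP in orange, with a bar at each group mean. C2orf49-DT was highest in the PABPN RIP (1446 to 1523), BAIAP2-DT highest in the PABPC RIP (315 to 341), and MMADHC-DT lowest in the PABPC RIP (38.7 to 54.0).

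The PABPC RIP divided the members. Of the 87 members, 22 rose (25.3%), 40 fell (46.0%) and 25 did not pass, with a median log2 difference of -0.45. Among all genes tested, 25.3% were called higher and 33.4% lower, with a median of -0.22. Among the 5971 genes above the members' minimum, 36.4% were called higher and 34.5% lower, with a median of 0.05. The groups did not overlap in 74 of the 87 members (85.1%), near the 82.7% of those genes. Without the 3 libraries that stood apart, 26 members rose and 42 fell. Under total-read scaling 15 rose and 46 fell, and under upper-quartile scaling 31 rose and 37 fell, so the share of higher calls among the members lay between 24.6% and 45.6%, with 35.5% at the deposited size factors.

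HK2-DT and BAIAP2-DT rose in the PABPC RIP and did not pass in the PABPN RIP. HK2-DT (ENSG00000272711, chr2:74832655-74833987, minus strand, 1 exon), at the promoter of the glycolytic enzyme hexokinase 2, had 70.4, 107 and 91.2 in input, 88.3, 93.2 and 42.2 in the PABPN RIP, and 326, 447 and 422 in the PABPC RIP. BAIAP2-DT (ENSG00000226137, chr17:81029130-81034881, minus strand, 2 exons), at the promoter of an actin-regulating adaptor, had 91.8, 85.5 and 83.9 in input, 84.2, 79.7 and 87.2 in the PABPN RIP, and 341, 329 and 315 in the PABPC RIP. Input and PABPN RIP overlapped for both RNAs, and the PABPC RIP lay above all of them. The PABPN RIP minus PABPC RIP difference was -2.47 ± 0.27 for HK2-DT and -1.96 ± 0.15 for BAIAP2-DT (limma, adjusted p = 1.3e-06 and 2.7e-08), the lowest among the members.

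KDM7A-DT and MAFG-DT rose in both RIPs and more with PABPC. KDM7A-DT, named after a histone demethylase gene, had 49.9, 44.3 and 50.8 in input, 80.1, 94.1 and 104 in the PABPN RIP, and 205, 178 and 186 in the PABPC RIP. MAFG-DT, named after a small Maf transcription factor, had 46.3, 58.3 and 48.7 in input, 115, 113 and 82.7 in the PABPN RIP, and 197, 176 and 192 in the PABPC RIP. For both RNAs the 3 groups formed separate ranges in that order. Their PABPN RIP minus PABPC RIP differences were -1.03 ± 0.17 and -0.87 ± 0.18 (limma, adjusted p = 9.6e-05 and 7.1e-04).

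GOLPH3-DT, at the promoter of a Golgi phosphoprotein gene, had 64.2, 39.2 and 39.4 in input, 57.2, 46.6 and 65.6 in the PABPN RIP, and 155, 113 and 126 in the PABPC RIP. CEBPA-DT, at the promoter of a differentiation transcription factor, had 66.8, 50.3 and 47.7 in input, 76.0, 86.9 and 77.3 in the PABPN RIP, and 186, 158 and 134 in the PABPC RIP. Both rose in the PABPC RIP, by 1.47 ± 0.23 and 1.52 ± 0.19 (limma, adjusted p = 6.4e-05 and 7.9e-06), and neither passed in the PABPN RIP.

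The members that fell most in the PABPC RIP were long genes. DPH6-DT (ENSG00000248079, chr15:35546154-35860199, plus strand, 314 kb), divergent from a gene of diphthamide synthesis, had 706, 430 and 500 in input, 452, 513 and 698 in the PABPN RIP, and 52.1, 49.1 and 40.0 in the PABPC RIP. MMADHC-DT (ENSG00000231969, chr2:149587196-150047447, plus strand, 460 kb), divergent from a gene of vitamin B12 metabolism, had 516, 506 and 557 in input, 411, 513 and 437 in the PABPN RIP, and 54.0, 52.8 and 38.7 in the PABPC RIP. In both, input and PABPN RIP overlapped while the PABPC RIP was far below. The log2 differences in the PABPC RIP were -3.48 ± 0.20 and -3.43 ± 0.16 (limma, adjusted p = 2.6e-09 and 4.0e-10), against 0.03 ± 0.20 and -0.22 ± 0.16 in the PABPN RIP, neither of which passed.

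APCDD1L-DT (chr20:58515379-58619888, plus strand, 105 kb) had 582, 524 and 653 in input, 849, 825 and 687 in the PABPN RIP, and 62.7, 93.3 and 67.6 in the PABPC RIP. Its fall in the PABPC RIP was -2.97 ± 0.16 on the log2 scale (limma, adjusted p = 1.4e-09), and its difference of 0.42 ± 0.16 in the PABPN RIP did not pass. LGALSL-DT, named after a galectin-like gene, fell by 3.03 (SE 0.19; limma, adjusted p = 5.2e-09), from 168, 168 and 175 in input to 24.1, 16.0 and 20.7 in the PABPC RIP. KDM2B-DT, named after a demethylase gene of a Polycomb complex, had 222, 193 and 179 in input, 276, 280 and 449 in the PABPN RIP, and 53.1, 38.1 and 49.7 in the PABPC RIP. It was 2.78 ± 0.21 higher in the PABPN RIP than in the PABPC RIP (limma, adjusted p = 2.6e-08).

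AGK-DT and EPCAM-DT, divergent from the genes of a mitochondrial lipid kinase and of an epithelial adhesion protein, were higher in the libraries that stood apart. AGK-DT had 244, 141 and 161 in input, 154, 159 and 298 in the PABPN RIP, and 46.3, 20.9 and 16.6 in the PABPC RIP. EPCAM-DT had 332, 208 and 181 in input, 170, 196 and 344 in the PABPN RIP, and 53.1, 29.5 and 24.8 in the PABPC RIP. In each group a single library was the highest for both RNAs, and the PABPC RIP still lay below all other libraries. The falls in the PABPC RIP were -2.76 ± 0.35 and -2.74 ± 0.31 (limma, adjusted p = 7.0e-06 and 2.5e-06).

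The direct comparison of the RIPs gave 57 members higher with PABPN (65.5%), 9 higher with PABPC (10.3%) and 21 that did not pass, with a median log2 difference of 1.13 and no overlap between the RIPs in 76 members (87.4%). Over all genes tested, 41.1% were higher with PABPN and 20.6% lower, with a median of 0.64. Among the 5971 genes above the members' minimum, 43.5% were higher and 28.9% lower, with a median of 0.32, and the RIPs did not overlap in 82.9%. Among all 1402 lncRNAs tested above that minimum, 70.7% were higher and 9.06% lower, with a median of 1.48. The lean to PABPN was thus not particular to the DT lncRNAs. Without the 3 libraries that stood apart the members' counts were 59 and 11. Upper-quartile scaling gave 47 and 16, and size factors from the solved genes gave 45 and 18, with shifts of -0.42 and -0.47 in the median of all genes, so that 74.6% and 71.4% of the members' calls were higher with PABPN instead of 86.4%.

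Joining the calls of both RIPs, which share their input libraries, 14 members rose in both (16.1%, against 10.1% of the 5971 genes above the members' minimum), 16 rose with PABPN and did not pass with PABPC (18.4% against 8.02%), and 8 rose with PABPC and did not pass with PABPN (9.20% against 22.0%). A further 35 fell with PABPC and did not pass with PABPN (40.2% against 29.9%), and 9 passed in neither (10.3%, against 1192 of the 5971 genes). The remaining 5 (5.75% against 2.86%; NUP50-DT, PGLS-DT, VPS13B-DT, WDR5B-DT and ZKSCAN2-DT, named after their values were seen) rose with PABPN and fell with PABPC. Among these, ZKSCAN2-DT had 194, 174 and 165 in input, 392, 377 and 524 in the PABPN RIP, and 75.2, 84.7 and 77.3 in the PABPC RIP, 3 ranges without overlap.

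**Figure D2:**
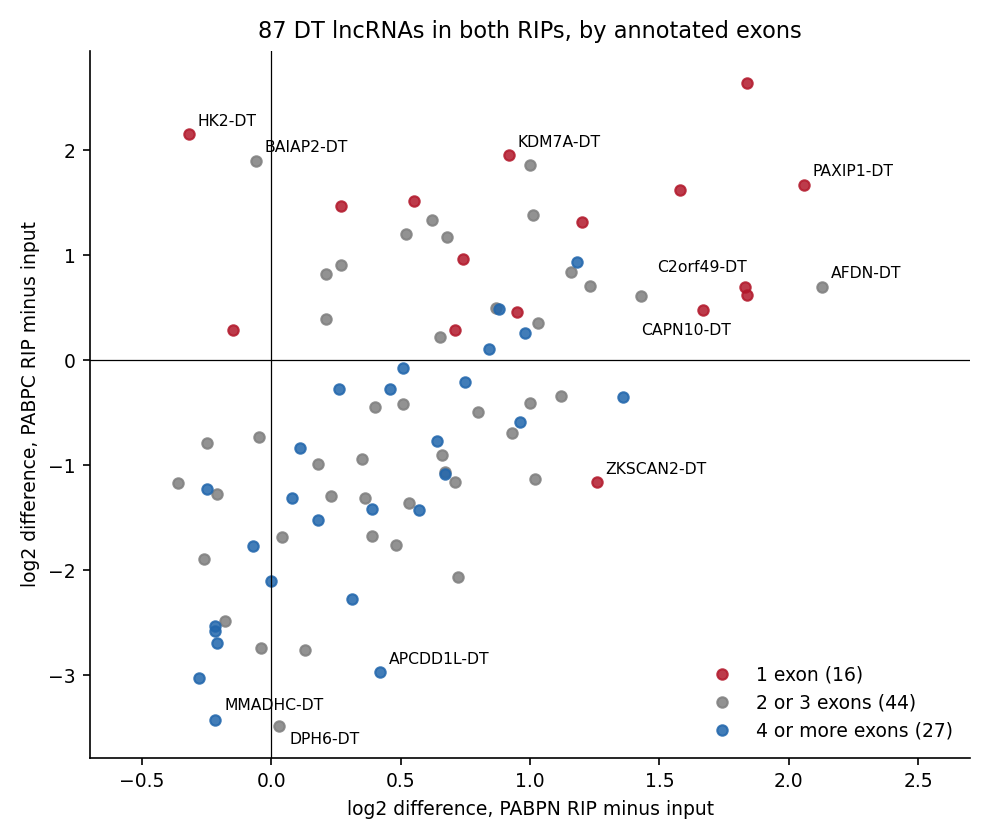
Log2 difference from input in the PABPN RIP (horizontal) and the PABPC RIP (vertical) for the 87 members with solved reads, coloured by the number of annotated exons; both axes use the same 3 input libraries. Single-exon members (red) lie mostly in the upper part, with a median of 1.14 on the vertical axis, and members with 4 or more exons (blue) mostly in the lower part, with a median of -1.23.

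The position of a member in the RIPs went with its gene structure, which the choice of members did not use. Of the 16 single-exon members, 10 rose in the PABPN RIP and 10 in the PABPC RIP, with medians of 1.07 and 1.14, and 1 of them, ZKSCAN2-DT, fell in the PABPC RIP. Of the 27 members with 4 or more exons, 6 rose in the PABPN RIP, none rose and 17 fell in the PABPC RIP, with medians of 0.39 and -1.23. Members with 2 and with 3 exons lay between, with 7 risen and 7 fallen of 18, and 5 risen and 15 fallen of 26, in the PABPC RIP. Other genes also showed this order in the PABPC RIP. Spearman's rho between exon number and the log2 difference there was -0.53 for the members, -0.44 for other lncRNAs and -0.48 for coding genes. For the PABPN RIP the values were -0.36, -0.34 and -0.03. Shares of calls by exon class were not computed for other genes.

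The span of the gene showed the same order. Of 33 members below 10 kb, 19 rose and 3 fell in the PABPC RIP, and 21 rose in the PABPN RIP. Of 30 members of 10 to 50 kb, 3 rose (CTBP1-DT, OSER1-DT and PCCA-DT) and 17 fell in the PABPC RIP. Of 24 members of 50 kb or more, none rose and 20 fell in the PABPC RIP, and 3 (ITGB1-DT, LHX1-DT and VPS13B-DT) rose in the PABPN RIP. Among the 17 members below 10 kb that had 2 or more exons, 9 rose and 2 fell in the PABPC RIP, with a median of 0.70. As for exons, shares of calls by span class were not computed for other genes, so these counts have no background beside them.

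Across the 87 members, Spearman's rho between span and the log2 difference was -0.74 for the PABPC RIP and -0.53 for the PABPN RIP, and -0.65 for the PABPC RIP among the 71 members with 2 or more exons. This is a correlation across genes that share the same 9 libraries, and genes are not independent replicates. It was not particular to the DT lncRNAs: rho for the PABPC RIP was -0.65 over 1306 other lncRNAs with means above 50 and -0.73 over 4192 coding genes. For the PABPN RIP it was -0.50 over the other lncRNAs and -0.25 over the coding genes. Because intronic reads were counted, a gene with long introns offers more unspliced sequence to be read, and the part of this in the relation was not tested. A poly(A) signal in the last 50 bases did not divide the members in the same way: 20 of 40 members with the signal and 20 of 47 without it fell in the PABPC RIP, and 16 and 19 rose in the PABPN RIP. Between the RIPs, 5 of 8 single-exon members with the signal and 0 of 8 without it were higher with PABPC. Among members with 2 or more exons these counts were 1 of 32 and 3 of 39. These small classes were not tested against each other.

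**Figure D3:**
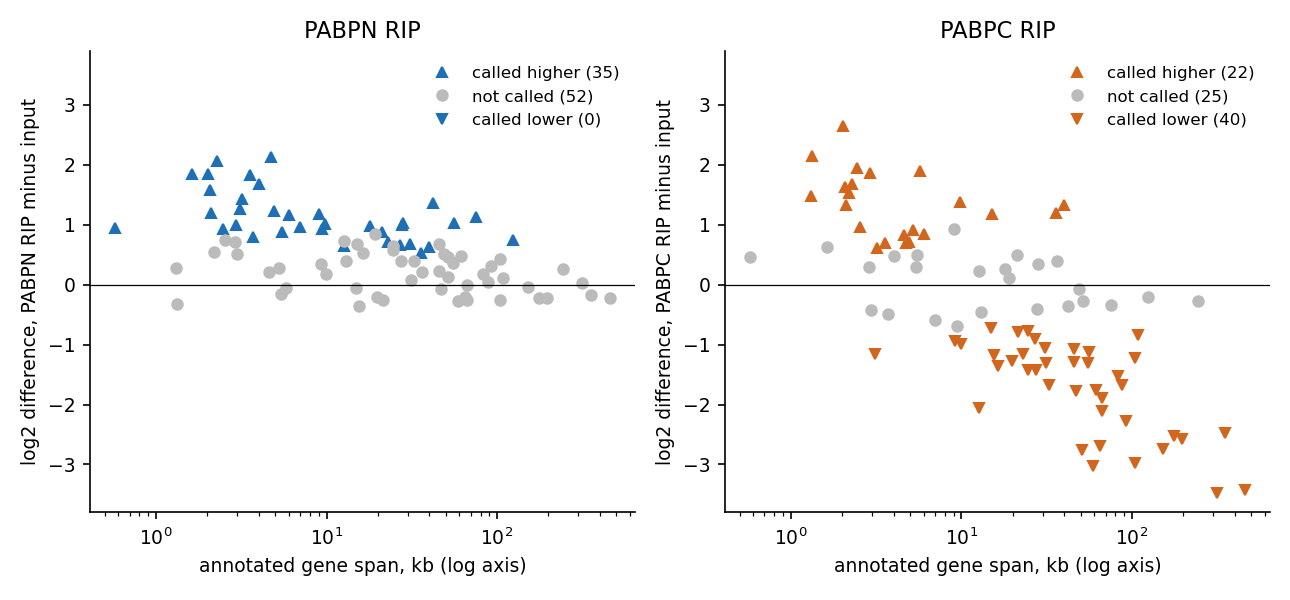
Log2 difference from input against the annotated span of the gene in kb (log axis) for the 87 members, with the PABPN RIP at left and the PABPC RIP at right; triangles mark members called higher or lower and grey circles those not called. In the PABPC RIP the 20 called members of 50 kb or more are all lower, while 19 of the 22 called higher are below 10 kb.

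The 7 members without solved reads include the 6 with the highest means. Their deposited means over input and PABPN RIP, and over input and PABPC RIP, were 3826 and 1948 for RAB30-DT, 2242 and 1217 for GARS1-DT, 2050 and 1357 for NIPBL-DT, 1784 and 897 for TMCC1-DT, 1768 and 918 for GMDS-DT, 1686 and 1002 for MAP4K3-DT, and 994 and 445 for ZNF594-DT. As the same input libraries stand in both means, the ratio of the means on a common scale is the least that the RIPs can differ by. None of the 13143 solved genes set against this bound broke it. Their reads were solved from the same means, so these genes could not test the bound. The PABPN RIP was at least 1.66-fold higher than the PABPC RIP for RAB30-DT, named after a Golgi GTPase, 1.56-fold for GARS1-DT, named after glycyl-tRNA synthetase, and 1.28-fold for NIPBL-DT, named after the cohesin loader. It was at least 1.68-fold higher for TMCC1-DT, 1.63-fold for GMDS-DT, 1.42-fold for MAP4K3-DT and 1.89-fold for ZNF594-DT. These are bounds from the authors' means at the deposited size factors, with no error and no test.

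The same bound can be set for every member and its coding partner, whether solved or not. By it, 76 of the 94 members (80.9%) were higher in the PABPN RIP than in the PABPC RIP and 18 higher in the PABPC RIP. Of the partners, 40 (42.6%) were higher in the PABPN RIP, 52 higher in the PABPC RIP and 2 undecided. Of all 12452 coding genes with means above 50, 45.7% were higher in the PABPN RIP. No share by this bound was computed for other lncRNAs. In the direct comparison above, 70.7% of all 1402 lncRNAs were called higher with PABPN, against 65.5% of the members. In 39 pairs the DT lncRNA was higher with PABPN and its partner higher with PABPC, and in 3 pairs, those of BAIAP2-DT, KDM7A-DT and PCCA-DT, the reverse held. In 37 pairs both were higher with PABPN, and in 13 both were higher with PABPC. BAIAP2 itself was at least 1.71-fold higher in the PABPN RIP, while BAIAP2-DT was at least 2.41-fold higher in the PABPC RIP. MMADHC was at least 2.48-fold higher in the PABPC RIP, opposite to MMADHC-DT, which was at least 1.69-fold higher in the PABPN RIP. The AFDN, PAXIP1 and DPH6 mRNAs were, like their DT lncRNAs, higher in the PABPN RIP, by at least 1.31-fold, 1.22-fold and 1.47-fold.

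For 21 pairs both RNAs were solved, and the log2 ratio of the DT lncRNA to its partner was compared between groups within each library, which largely removes the scaling of the libraries. These are pairs whose partner had few enough reads to be solved, which depended on its read total and not on its level per kb. Most of these partners had short spans. Across coding genes a shorter span went with a higher value in the PABPC RIP, as given above. How far this shaped the pair counts was not tested, and these pairs may not stand for the others. In all, 721 head-to-head pairs of the genome with both genes solved were tested together. In the PABPC RIP against input the DT lncRNA fell relative to its partner in 14 of the 21 pairs and rose in 1 (SP2-DT), with a median difference of -1.67. In the PABPN RIP against input it rose relative to its partner in 4 pairs and fell in 2, with a median of 0.38. Between the RIPs it was higher with PABPN in 16 pairs and lower in none, with a median of 1.74. Over the 721 pairs, 56.4% were called in either direction in the PABPC RIP, 19.4% in the PABPN RIP and 63.4% between the RIPs. Leaving out the 3 libraries that stood apart gave 16 falls and 1 rise in the PABPC RIP, 6 rises and 3 falls in the PABPN RIP, and 17 pairs higher with PABPN between the RIPs. The 4 rises with PABPN rested on the input libraries: 0 were called without input library 2, 1 without input library 3, and 2 without PABPN RIP library 2. The 2 falls became 1 without any 1 of 6 libraries (each input library, PABPN RIP libraries 1 and 2, and PABPC RIP library 3).

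NDUFA6-DT (chr22:42090931-42137742, plus strand, 7 exons) and NDUFA6, which encodes a subunit of mitochondrial complex I, start within 47 bases of each other, as printed above. NDUFA6-DT had 931, 812 and 854 in input, 845, 771 and 847 in the PABPN RIP, and 261, 268 and 231 in the PABPC RIP. NDUFA6 had 645, 780 and 819 in input, 447, 391 and 391 in the PABPN RIP, and 2277, 2699 and 2475 in the PABPC RIP. The lncRNA was thus low and its partner high in every PABPC RIP library. Relative to its partner the lncRNA changed by -3.50 ± 0.16 in the PABPC RIP and by 0.79 ± 0.16 in the PABPN RIP (limma, adjusted p = 2.9e-10 and 0.00188).

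LGALSL-DT and LGALSL, with start sites 2 bases apart, gave the largest difference of the 21 pairs. LGALSL had 509, 557 and 655 in input, 631, 615 and 538 in the PABPN RIP, and 1597, 1992 and 1984 in the PABPC RIP, where LGALSL-DT had 24.1, 16.0 and 20.7. The ratio changed by -4.72 ± 0.26 in the PABPC RIP (limma, adjusted p = 1.2e-09) and by -0.34 ± 0.26 in the PABPN RIP, which did not pass. The ratios of FRG1-DT, FZD4-DT and PGLS-DT to their partners also changed from input to the PABPC RIP, by -2.77 ± 0.26, -3.07 ± 0.31 and -2.33 ± 0.22 (limma, adjusted p = 2.4e-07, 6.4e-07 and 3.4e-07).

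WDR5B-DT differed from this pattern on the PABPN side. WDR5B, a paralog of a histone methyltransferase subunit, had 207, 205 and 204 in input, 861, 893 and 867 in the PABPN RIP, and 468, 489 and 440 in the PABPC RIP. WDR5B-DT had 759, 672 and 685 in input, 1065, 957 and 1356 in the PABPN RIP, and 433, 328 and 374 in the PABPC RIP. Here the coding RNA rose more than the lncRNA with PABPN: the ratio changed by -1.42 ± 0.17 in the PABPN RIP and by -2.08 ± 0.17 in the PABPC RIP (limma, adjusted p = 4.2e-05 and 8.2e-08). FZD4, the gene of a Wnt receptor, likewise exceeded FZD4-DT in the PABPN RIP, with a ratio change of -1.26 ± 0.31 (limma, adjusted p = 0.00726).

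SAP30-DT, CEBPA-DT and DLX2-DT rose relative to their partners with PABPN. SAP30, which encodes a subunit of a histone deacetylase complex, had 473, 687 and 736 in input and 401, 399 and 346 in the PABPN RIP, while SAP30-DT had 88.2, 73.4 and 93.2 in input and 132, 148 and 191 in the PABPN RIP. The partner was lower and the lncRNA higher in all PABPN RIP libraries. The ratios changed by 1.57 ± 0.30, 1.32 ± 0.27 and 1.20 ± 0.29 for the 3 pairs (limma, adjusted p = 0.00147, 0.00230 and 0.00620).

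Some pairs could not be told apart in 1 RIP or in both. In the PABPC RIP the ratio of ZFAND2A-DT to ZFAND2A changed by -0.27 ± 0.34 and that of ZNF582-DT to ZNF582 by 0.30 ± 0.22, those of CEBPA-DT and H3-3A-DT to their partners by -0.41 ± 0.27 and -0.59 ± 0.36, and none passed. Of these, the CEBPA-DT pair passed in the PABPN RIP, as given above. In the PABPN RIP the ratios of MICB-DT, EPCAM-DT and TMEM167B-DT to their partners changed by -0.02 ± 0.22, 0.02 ± 0.30 and -0.15 ± 0.26, and none passed. These 3 pairs did differ in the PABPC RIP, with ratio changes of -1.76 ± 0.22, -2.06 ± 0.30 and -1.66 ± 0.26 (limma, adjusted p = 4.7e-06, 2.3e-05 and 5.0e-05). The partner APCDD1L was at 8.05 to 12.3 normalized counts in input and the PABPN RIP and at 0, 0 and 1.38 in the PABPC RIP, too low for its ratio to APCDD1L-DT to be read in the PABPC RIP.

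**Figure D4:**
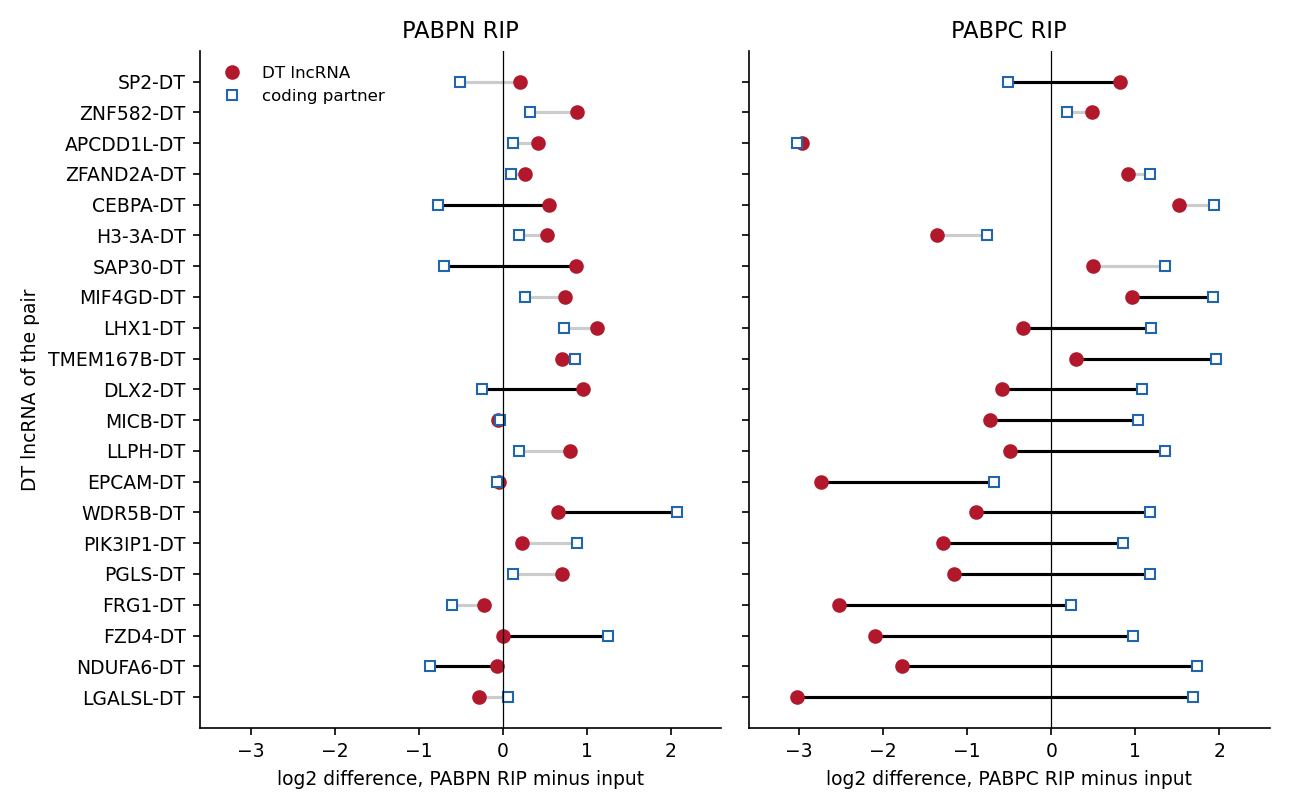
Log2 difference from input of the DT lncRNA (red circle) and its coding partner (open blue square) for the 21 pairs with solved reads, PABPN RIP at left and PABPC RIP at right; black lines join pairs whose difference was called and grey lines the others. In the PABPC RIP the lncRNA lies left of its partner in 14 called pairs and right of it in 1.

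LHX1-DT and LHX1, a kidney developmental regulator expressed in HEK293T cells, were chosen after their values were seen because the bases between them are printed above. LHX1 had 405, 433 and 437 in input, 751, 667 and 696 in the PABPN RIP, and 915, 1012 and 977 in the PABPC RIP, higher than input in both RIPs. LHX1-DT rose in the PABPN RIP, by 1.12 on the log2 scale, and was at -0.34 in the PABPC RIP, which did not pass. The ratio changed by -1.53 ± 0.15 in the PABPC RIP (limma, adjusted p = 4.5e-07) and by 0.39 ± 0.15 in the PABPN RIP, which did not pass.

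Other lncRNA classes with means above 50 in both tables are given only for scale, without a test between classes. Of 314 tested lncRNAs with names ending in -AS and a number, 26.4% rose and 0.637% fell in the PABPN RIP. In the PABPC RIP 23.6% of them rose and 50.6% fell. Of 163 lncRNAs named LINC, 11.7% rose and none fell in the PABPN RIP, and in the PABPC RIP 9.82% rose and 73.6% fell. Over all 1402 tested lncRNAs, 24.4% rose and 1.85% fell in the PABPN RIP, and 58.3% fell in the PABPC RIP. Over 4193 coding genes 19.4% rose and 8.73% fell in the PABPN RIP, and 24.9% fell in the PABPC RIP. Between the RIPs, 63.7% of the -AS lncRNAs and 79.8% of the LINC lncRNAs were higher with PABPN, with medians of 1.14 and 1.85. For coding genes the share was 32.5%, with a median of -0.06. With no minimum on the deposited means, 215 DT lncRNAs were tested. Of these, 58 rose (27.0%) and none fell in the PABPN RIP, against 13.0% and 4.70% of all 13285 genes tested. In the PABPC RIP 49 rose (22.8%) and 67 fell (31.2%), near the 25.3% and 33.4% of all genes tested. The minimum removed 24 DT lncRNAs that were above 50 in the PABPN table alone and 3 that were above 50 in the PABPC table alone, and since the tables differ in scale the same minimum is not equally strict in both.

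**Figure D5:**
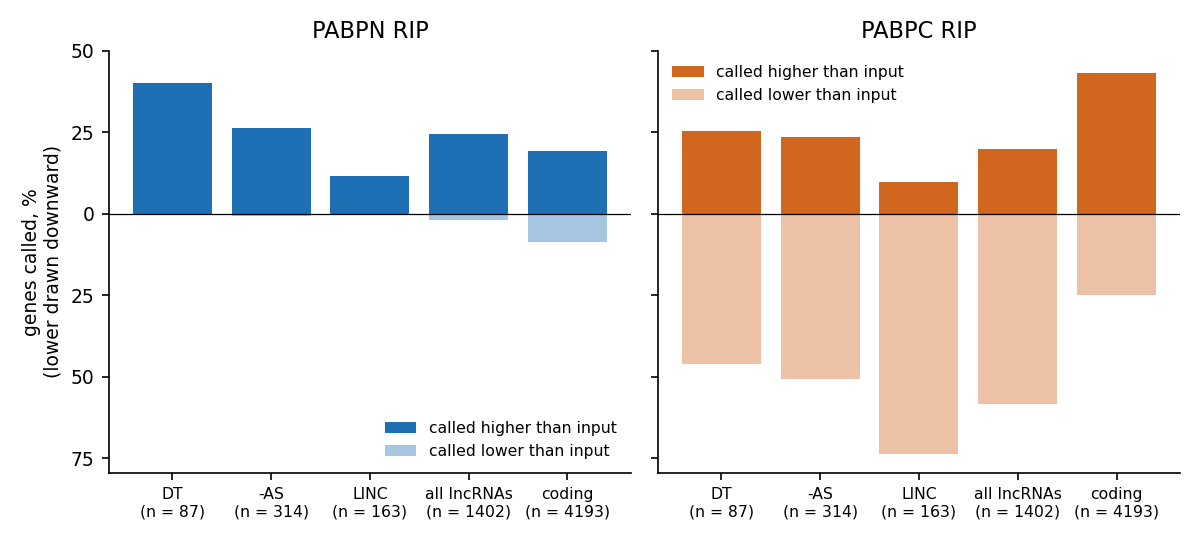
Percent of genes called higher (upward) or lower (downward) than input in the PABPN RIP and PABPC RIP for DT lncRNAs, antisense (-AS) lncRNAs, LINC lncRNAs, all lncRNAs and coding genes, all with means above 50 in both tables. The DT bars stand at 40.2% higher with PABPN, and at 25.3% higher and 46.0% lower with PABPC.

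Members just inside the minimum were GOLPH3-DT, CEBPA-DT and SP2-DT in the PABPN table (means of 56.3, 73.0 and 75.4) and NFE2L1-DT, LMNB1-DT and SEPTIN7-DT in the PABPC table (53.0, 53.5 and 54.0). Just outside lay WDR5-DT, AKAP1-DT and MPC1-DT in the PABPN table (48.0, 48.6 and 49.5) and EIF2AK3-DT, DNAJA2-DT and USP46-DT in the PABPC table (46.1, 47.4 and 47.9).

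The mRNAs of the factors that end and remove divergent transcripts were mostly too abundant to be solved. Of a list of 34 such genes (the exosome and its nuclear adaptors, cleavage factors, U1 snRNP, cap-binding and Integrator subunits), 2 were tested. RBM7, which encodes an RNA-binding adaptor of the exosome, and EXOSC4, a core exosome subunit, fell in the PABPN RIP, by -0.71 and -0.74, and rose in the PABPC RIP, by 1.22 and 1.93. By the bound from the means, 23 of the 34 mRNAs were higher in the PABPC RIP than in the PABPN RIP, 9 were higher in the PABPN RIP and 2 were undecided. Of all 12452 coding genes with means above 50, 6559 were higher in the PABPC RIP and 5688 in the PABPN RIP. Some of the bounds were close to 1-fold, such as 1.02-fold for EXOSC2 with PABPC and 1.01-fold for INTS1 with PABPN. The 9 included ZFC3H1 and ZCCHC8, scaffolds of exosome adaptor complexes, at least 1.35-fold and 1.48-fold higher in the PABPN RIP. The PABPN1 mRNA itself was at least 1.63-fold higher in the PABPC RIP.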

How the data were processed

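Crosslinked HEK293T total lysate was sequenced as 3 input, 3 PABPN RIP and 3 PABPC RIP libraries. The authors aligned reads to hg38 with STAR, counted exonic and intronic reads with featureCounts 2.0.2 on an annotation with overlapping regions removed, and ran DESeq2; whether strand was used is not given in the sources used here. Each deposited table holds a mean normalized count (signal: reads over DESeq2 size factors, averaged over 6 libraries) and the authors' own log2 fold change, error, statistic and p-values, which were not used. The deposited length column served for levels per kb, whose values are not given here, and entered no test.

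The weight of a read in each library was taken from the commonest lowest means, and a library whose weight occurs in both tables is an input. The whole reads of a gene in 9 libraries were then solved from both means by lattice reduction (Python 3.11.15, numba 0.67.0). A single solution was accepted at means below 600; up to 1500, a replicate deviance of at most 20 and a margin of 20 to the next solution were required; nothing was sought above 1500. Of 51105 genes, 7965 lay above 1500. Of 398 or 399 means made false on purpose per range, 0 or 1 were accepted below 1000, and 16 of 398 between 1000 and 1500. As the abundant genes stayed unsolved, no count model was used.

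Log2(normalized count + 1) of the 13285 genes with a mean above 5 was fitted by limma 3.58.1 (R 4.3.3; trend, 3 groups in 1 fit), and log2 ratios of 721 head-to-head pairs likewise. The script was tested on simulated data. The plan named a median-of-ratios scaling; as only weaker genes were solved, the size factors implied by the deposited means, which rest on all genes, were used and the other became an alternative. Named genes are the 6 highest and 6 lowest called members of each comparison, the 6 most abundant, the 5 largest and 5 smallest pair differences in each RIP, and the neighbours of the minimum. Of these, 1 member is not reported here, although the counts over members include it. Members and lists were chosen with earlier results of these data known. The sample labels number the 3 libraries of a group as replicates, and the study reports them as biological replicates. Intervals of counting error are not given, as the libraries carry no molecular identifiers. Annotation and sequences are from GENCODE 44 and RefSeq. Other scalings, pseudocounts, filters, thresholds and left-out libraries were tried.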

Additional observations from a re-analysis of the deposited data

How the results depend on the processing

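The directions of the 30 named differences of single members, pairs not included, did not change under the alternatives that could be run: of 690 recomputed values, 688 kept their call and 2 (CEBPA-DT and MAFG-DT between the RIPs, at -0.97 and -0.87) missed a log2 cut-off of 1. These members were chosen for their extreme differences in the same data, so their stability does not speak for the other members. Counts of members and of pairs moved more. With size factors from the solved genes, 19 members were higher and 4 lower in the PABPN RIP and 18 lower in the PABPN RIP than in the PABPC RIP, which was 16 under the upper quartile. A log2 cut-off of 1 left 18 members higher in the PABPN RIP, 14 higher in the PABPC RIP and 4 lower between the RIPs. Without a filter on low values, 15 were higher in the PABPN RIP, and 0 and 1 pairs were higher and lower there and 0 pairs higher in the PABPC RIP. Without the trend, 2 and 1 pairs were higher and lower in the PABPN RIP, and the stricter margin left 0 pairs higher in the PABPC RIP. A minimum mean of 100, which keeps fewer members, gave 13 members higher in the PABPC RIP and 3 lower between the RIPs, with 1 and 1 pairs in the PABPN RIP, 0 higher and 8 lower pairs in the PABPC RIP, and 8 between the RIPs. Leaving out a library gave 25 to 36 members higher in the PABPN RIP, 17 to 24 higher and 36 to 42 lower in the PABPC RIP, and 53 to 59 higher and 9 to 11 lower between the RIPs. For pairs the ranges were 0 to 4 higher and 1 to 2 lower in the PABPN RIP, and 14 to 15 lower in the PABPC RIP.

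No paired analysis was possible because the recovered libraries carry no replicate number. The count models in the plan were not run, since most abundant genes have no solved reads. Pairs whose partner had too many reads to be solved were not tested for the same reason, and depth limits the members near 12 reads in a library.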
